A study of Homo sapiens with 24 samples.

Results

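The immunoglobulin loci hold the gene segments from which B cells assemble the heavy chain (IGH, chromosome 14) and the kappa (IGK, chromosome 2) and lambda (IGL, chromosome 22) light chains of the antibody. A member region was any region of the 8 deposited lists that overlapped the span from the first to the last immunoglobulin constant (C), variable (V), diversity (D) or joining (J) gene of a locus, with 50 kb added on both sides. The 3 loci contained 187 such genes in 3.53 Mb, and 86 of the 26369 distinct listed regions lay in them, 21 in IGH, 20 in IGK and 45 in IGL. Chromatin accessibility had been measured by ATAC-seq, in which a transposase cuts open DNA, in OCI-LY3 and VAL, established human diffuse large B-cell lymphoma lines. Each line was compared at 3 h and at 8 h of 30 nM AZD4573, an inhibitor of the transcription kinase CDK9, with its own 0 h libraries, the control that the names of the lists give as DMSO, the solvent used as vehicle. Each of the 6 groups had 4 libraries, 2 made from 50000 cells by the standard protocol and 2 from 5000 cells by Fast-ATAC. The lists give coordinates on hg19 and a direction, increased or decreased, but no value per library. The depth of the libraries and the spread between them are therefore unknown, and no test between groups was possible.

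Each V gene has its own promoter, which commonly carries an octamer, the binding site of the POU factors OCT1 and OCT2. Rearrangement joins 1 V gene to a J gene, with a D gene between them in IGH, and thereby brings its promoter close to enhancers near the C genes. Known enhancers lie between J and C genes in IGH and IGK and beyond the last C gene in all 3 loci, and class switching in IGH cuts repeats on the 5′ side of C genes. The reference carries the unrearranged loci, and which segments each line had joined or lost was not analysed here.

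The promoter sequences below show where the octamer stands in V genes that were called more than once. They were read from GRCh37, which is the same build as hg19, for 6 of the 8 V genes whose start had a listed region in 2 comparisons, those with the octamer in this window; the others, IGKV1D-43 and IGKV1D-8, are not printed. Each runs 5′ to 3′ in the direction of the gene, and capitals mark the octamer ATGCAAAT or its inverse ATTTGCAT.
IGHV4-28, chr14:106780993-106781167, minus strand: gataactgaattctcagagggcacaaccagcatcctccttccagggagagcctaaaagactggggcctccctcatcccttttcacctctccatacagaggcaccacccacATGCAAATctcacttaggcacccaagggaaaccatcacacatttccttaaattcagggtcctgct
IGKV1-6, chr2:89266262-89266436, minus strand: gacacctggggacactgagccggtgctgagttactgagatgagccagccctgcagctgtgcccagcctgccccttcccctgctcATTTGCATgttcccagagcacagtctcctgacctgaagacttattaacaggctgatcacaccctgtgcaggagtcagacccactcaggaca
IGLV5-48, chr22:22707139-22707313, plus strand: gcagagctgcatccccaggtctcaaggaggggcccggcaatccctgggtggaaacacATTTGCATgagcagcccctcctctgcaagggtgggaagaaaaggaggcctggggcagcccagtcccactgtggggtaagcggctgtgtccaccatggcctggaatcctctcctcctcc
IGLV7-46, chr22:22723832-22724006, plus strand: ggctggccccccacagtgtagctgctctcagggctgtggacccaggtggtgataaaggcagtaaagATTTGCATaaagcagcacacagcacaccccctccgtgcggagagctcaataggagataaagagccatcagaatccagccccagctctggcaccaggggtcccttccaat
IGLV1-44, chr22:22734985-22735159, plus strand: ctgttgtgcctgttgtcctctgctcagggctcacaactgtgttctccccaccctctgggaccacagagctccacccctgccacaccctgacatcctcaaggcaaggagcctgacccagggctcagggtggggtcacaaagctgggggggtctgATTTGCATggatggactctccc
IGLV3-9, chr22:23161357-23161531, plus strand: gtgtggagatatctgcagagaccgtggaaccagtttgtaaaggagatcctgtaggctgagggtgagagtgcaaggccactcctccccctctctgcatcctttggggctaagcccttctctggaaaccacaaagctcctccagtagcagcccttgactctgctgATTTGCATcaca

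The octamer stood as ATGCAAAT in IGHV4-28 and as ATTTGCAT in the 5 light chain genes. It was found from 250 bp before to 50 bp after the start, on either strand, in 96 of 128 V genes (75.0%), 40 of 148 V pseudogenes (27.0%) and 335 of 20176 protein-coding genes (1.66%). Over the V genes, all 40 matches in IGH read ATGCAAAT, and all 26 in IGK and all 31 in IGL read ATTTGCAT, so orientation followed the type of chain. The median match began 57 bp before the annotated start (median -57 bp, range -140 to 32 bp). The octamer was in 20 of the 28 V genes with a listed region at the start (71.4%) and in 76 of the 100 without one (76.0%). Among V pseudogenes the shares were 8 of 16 (50%) and 32 of 132 (24.2%). IGKV1D-43 and IGKV1D-8 had no match in this window, but both had one that began 86 bp after their annotated starts, so the annotated start sets part of this count. With 250 bp on both sides, 22 of 28 (78.6%) and 82 of 100 (82.0%) held it.

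Listed changes in the immunoglobulin loci were almost all increases. In VAL at 8 h, 54 of the 86 member regions (62.8%) were increased, beside 42.2% of all 26369 listed regions, and 0 were decreased, beside 35.1%. By locus, the increased share in VAL was 75.56% in IGL, below the 95.01% on the rest of chromosome 22. It was 15% in IGK, beside 18.02% on the rest of chromosome 2. In IGH it was 80.95%, beside 46.7% on the rest of chromosome 14, so only IGH exceeded its chromosome. In OCI-LY3 at 8 h, 32 of the member regions (37.2%) were increased, beside 16.6% of all, and 0 were decreased, beside 13.1%. There IGK (85%, beside 12.35%) and IGL (24.44%, beside 13.39%) had increased shares above the rest of their chromosomes. IGH (19.05%, beside 23.17%) lay below. At 3 h the counts were small. VAL had 9 increased (10.5%, beside 13.4%) and 0 decreased (beside 6.77%), and OCI-LY3 had 4 increased (4.65%, beside 7.02%) and 5 decreased (5.81%, beside 6.36%). These shares refer to regions listed at least once, since the full set of peaks the authors tested was not used here. Decreases in the antibody loci were thus listed at 1 time in 1 line, OCI-LY3 at 3 h.

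**Figure D1:**
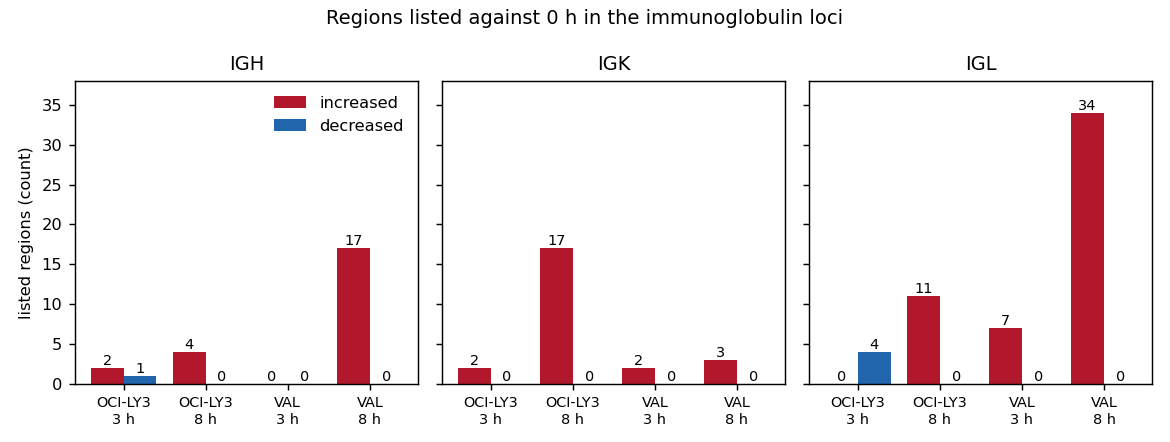
Listed regions in each immunoglobulin locus (count, vertical axis) by comparison with 0 h (horizontal axis), increased in red and decreased in blue. IGK dominated in OCI-LY3 at 8 h with 17 increased regions, IGL in VAL at 8 h with 34, and blue bars above 0 stand only at OCI-LY3 3 h, with 1 region in IGH and 4 in IGL.

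The lines differed in which locus carried the calls. In OCI-LY3 at 8 h the increased regions numbered 17 in IGK, 11 in IGL and 4 in IGH. In VAL at 8 h they numbered 34 in IGL, 17 in IGH and 3 in IGK. At 3 h, VAL had 7 in IGL, 2 in IGK and 0 in IGH, and OCI-LY3 had 2 increased in IGK, 2 increased and 1 decreased in IGH, and 4 decreased in IGL. At 8 h, IGK thus had the most calls in OCI-LY3 and IGL in VAL. In VAL at 3 h, 6 of the 7 IGL regions and 0 of the 2 in IGK lay within 1 kb of the start of a gene of no immunoglobulin type, so without such regions IGL did not lead at that time. Whether this order differs beyond the spread between libraries could not be tested.

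The direction of calls also differs between chromosomes, and this bears on each locus in its own way. The share of decreased regions among all those listed was 44.2% in OCI-LY3 and 45.4% in VAL at 8 h. On the rest of chromosome 22 it was 11.3% (95% exact binomial interval 5.99 to 18.9) and 0.448% (0.0924 to 1.30), so an almost complete absence of decreases in VAL was common to IGL and its chromosome. On the rest of chromosome 2 it was 56.7% (52.5 to 60.8) in OCI-LY3 and 75.8% (73.5 to 77.9) in VAL. IGK, on that same chromosome, had 0 decreased of 17 regions listed in OCI-LY3 at 8 h (0%, interval 0 to 19.5) and 0 of 3 in VAL. On the rest of chromosome 14 the shares were 34.0% (27.4 to 41.1) and 31.6% (27.0 to 36.5), beside 0 of 4 regions and 0 of 17 regions (interval 0 to 19.5) in IGH. Over the 3 loci, the decreased share was 0 of 32 in OCI-LY3 (interval 0 to 10.9) and 0 of 54 in VAL (0 to 6.60). These intervals cover counting over regions only, and neighbouring regions are not independent. Over the whole genome, increased regions lay within 1 kb of an annotated start more often than decreased ones. The shares at 8 h were 41.88% and 13.25% in OCI-LY3, and 47.98% and 13.15% in VAL. Of the IGK regions increased in OCI-LY3 at 8 h, 82.35% lay within that distance. The part of nearness to starts in the decreased shares was not tested.

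**Figure D2:**
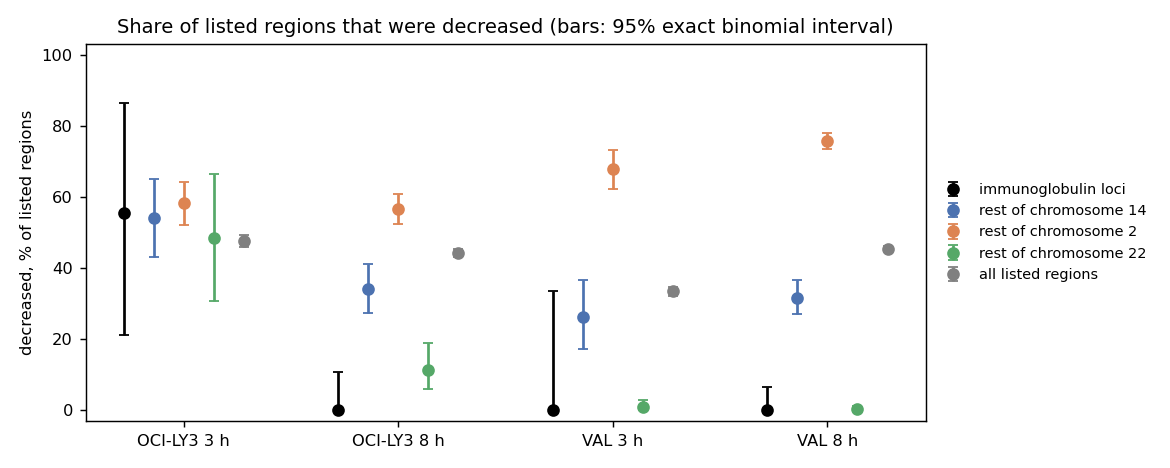
Decreased regions as a percentage of all regions listed in a comparison (vertical axis) for the immunoglobulin loci, the rest of their 3 chromosomes and the whole genome; bars are 95% exact binomial intervals over regions. The black points of the immunoglobulin loci lie at 0% in 3 of the 4 comparisons, while the rest of chromosome 2 lies at 56.7% and 75.8% at 8 h and the rest of chromosome 22 at 0.448% in VAL at 8 h.

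Listed regions were counted per Mb beside the rest of each chromosome. Chromosome lengths counted every position of the reference, unsequenced ones included, where no region can be listed. Densities on the rest of a chromosome are therefore underestimates. IGL held 34.7 listed regions per Mb in VAL at 8 h, against 13.3 on the rest of chromosome 22. IGH held 12.8 against 3.61 on the rest of chromosome 14. In OCI-LY3 at 8 h the values were 11.2 against 2.11 for IGL and 3.01 against 1.86 for IGH. At 3 h in VAL they were 7.14 against 4.83 for IGL and 0 against 0.83 for IGH. At 3 h in OCI-LY3 they were 4.08 against 0.656 for IGL and 2.26 against 0.802 for IGH. At 8 h IGK held 2.46 per Mb in VAL against 6.12 on the rest of chromosome 2, and 13.96 against 2.35 in OCI-LY3. The IGK regions of VAL were all increased, while on the rest of chromosome 2 only 359 of 1481 listed regions were. The VAL densities are thus not alike in direction. The VAL value rests on 3 regions. At 3 h, IGK held 1.64 per Mb in both lines, from 2 regions in each, against 1.20 on the rest of chromosome 2 in VAL and 1.12 in OCI-LY3.

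C genes encode the constant domains that set the antibody class. Of the 14, 3 (21.4%) were overlapped by a listed region in any comparison, beside 50.6% of protein-coding genes, which differ from them in length. A listed region within 1 kb of the start was seen for 2 (14.3%), beside 29.2% of protein-coding genes. IGHM, the gene of the mu chain of IgM, had a region at each end, and their directions and comparisons differed. The region over its 3′ end (chr14:106317710-106319817, over annotated exons 5 and 6) was decreased in OCI-LY3 at 3 h. The region over its 5′ end (chr14:106321928-106322648, over exon 1) was increased in VAL at 8 h. IGHA1, of the IgA1 heavy chain, was overlapped by a region increased in OCI-LY3 at 3 h (chr14:106172259-106173017), and a second region increased there lay 3333 bp to its 5′ side (chr14:106178335-106179424), at AL901608.1, annotated as a microRNA gene. IGHG2, of the IgG2 heavy chain, had a region over exon 5 (chr14:106107938-106108337) increased in VAL at 8 h. IGLC7, the last lambda C gene, had no overlapping region, but the region over IGLJ7 reached within 1 kb of its start. IGKC, IGHA2, IGHE, IGHG4, IGHG1, IGHG3, IGHD, IGLC1, IGLC2 and IGLC3 had none over the gene and none within 1 kb of the start.

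Between J and C genes, where the intronic enhancers of IGH and IGK are known to lie, 1 region was listed. The 2883 bp between IGKC and IGKJ5 held 0 listed regions, and the 7084 bp between IGHM and IGHJ6 were reached by 1, the region over the 5′ end of IGHM. At the density of listed regions over the 3 loci (24.4 per Mb), stretches of this total length would hold 0.243 regions, so the count is not low. In IGL, where J and C genes alternate, 3 regions lay among them. The region between IGLC2 and IGLJ3 (chr22:23244258-23246445), 585 bp from IGLJ3, was decreased in OCI-LY3 at 3 h, as was the one over IGLJ7 (chr22:23262767-23263772). The region over IGLJ5 (chr22:23255470-23256648) was increased in OCI-LY3 at 8 h. Each of the 3 was listed in 1 comparison. The D genes, which contribute to the most variable loop of the heavy chain, had 1 region, over IGHD5-12 and within 1 kb of IGHD1-14, IGHD4-11 and IGHD6-13, increased in VAL at 8 h inside the noncoding gene FAM30A.

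Beyond the last C gene, 7 regions were listed in VAL and 1 in OCI-LY3, none in both, beside 20.9% of all regions increased in VAL at 8 h that were also increased in OCI-LY3; nothing is read from so few. On the far side of IGHA2, 4 regions were increased in VAL at 8 h, at chr14:106037572-106038465, chr14:106033210-106033974, chr14:106025212-106026112 and chr14:106003821-106004937. They lay 14.8, 19.3, 27.1 and 48.3 kb from the gene, and their G+C content ran from 63.3% to 71.1%. Beyond IGLC7, 3 regions were increased in VAL at 8 h, 11.8, 19.4 and 31.8 kb away, at chr22:23277015-23278495, chr22:23284564-23286062 and chr22:23296995-23298228. Beyond IGKC, 1 region was increased in OCI-LY3 at 8 h, 46.6 kb away at chr2:89108314-89110029. The 3′ regulatory region of IGH is known to lie beyond IGHA2, but the annotation used here marks no enhancers, so these regions are described only by their distance. The farthest region beyond IGHA2 also reached within 1 kb of the start of the pseudogene ATP5MC1P1.

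**Figure D3:**
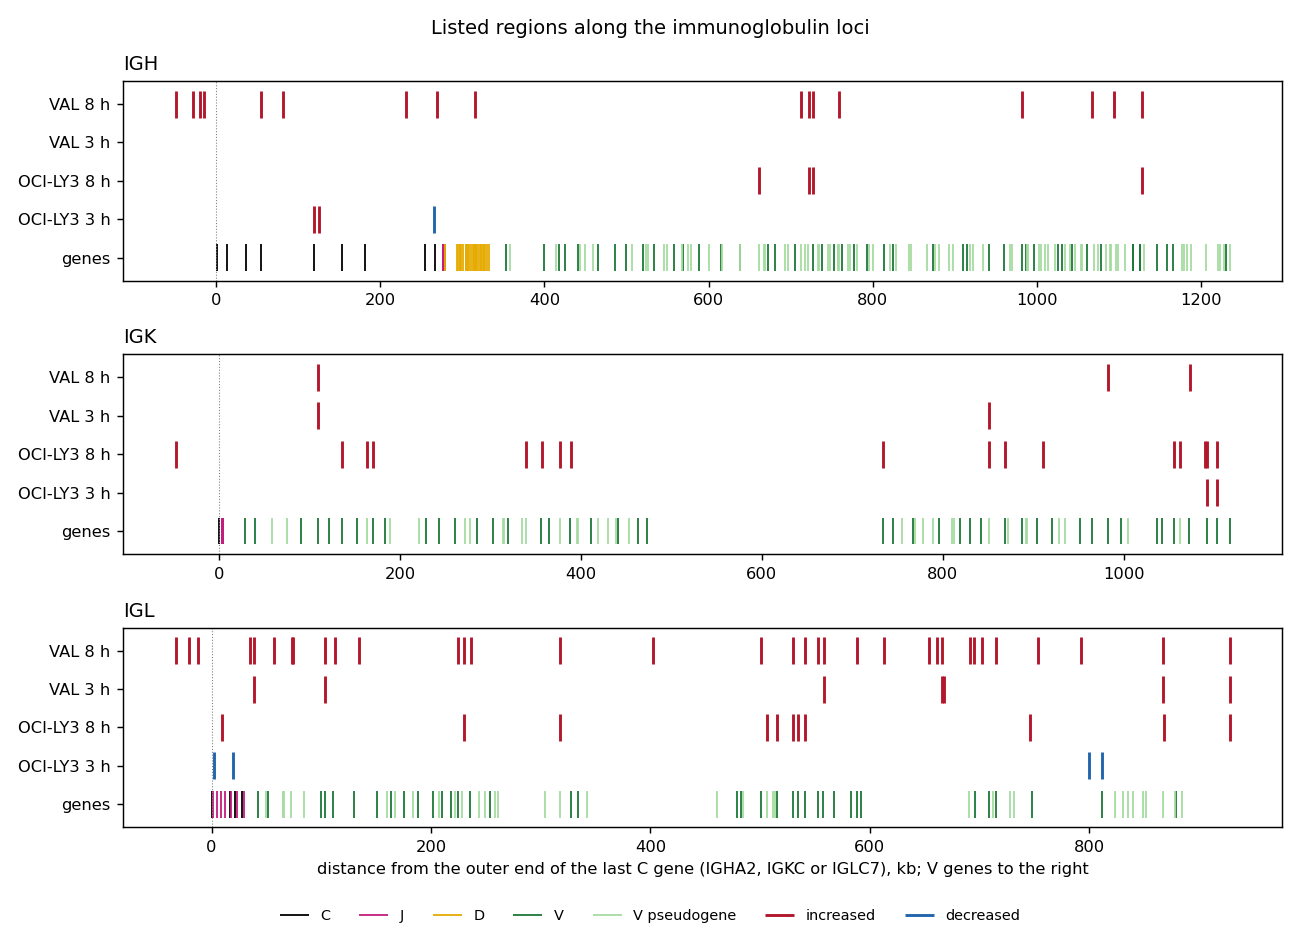
Listed regions along IGH, IGK and IGL, by comparison (rows), with the genes of each locus in the lowest row; the horizontal axis is the distance in kb from the outer end of IGHA2, IGKC or IGLC7, with V genes to the right and increased regions in red, decreased in blue. The 4 regions left of IGHA2 and the 3 left of IGLC7 belong to VAL at 8 h, and the IGK calls of OCI-LY3 at 8 h fall among both clusters of IGKV genes.

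V gene starts made up much of the membership. Of the 86 regions, 43 (50%) reached within 1 kb of the start of a V gene or V pseudogene, and 39 of these (90.7%) covered the start itself of the nearest one. Their median midpoint lay 164 bp inside the gene (range -869 to 1120 bp). Seen over any kind of gene, 69.8% of the member regions lay within 1 kb of an annotated start, beside 29.2% of all distinct listed regions. Among regions increased at 8 h, the shares were 84.4% beside 41.9% in OCI-LY3 and 64.8% beside 48.0% in VAL. These loci hold many annotated starts in a short span, and the part of that in the share was not tested. By gene class, 28 regions were at a V gene start, 3 at a J gene, 2 at a C gene and 1 at D genes, 33 in all with the region at IGLJ7 and IGLC7 counted in both classes.

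**Figure D4:**
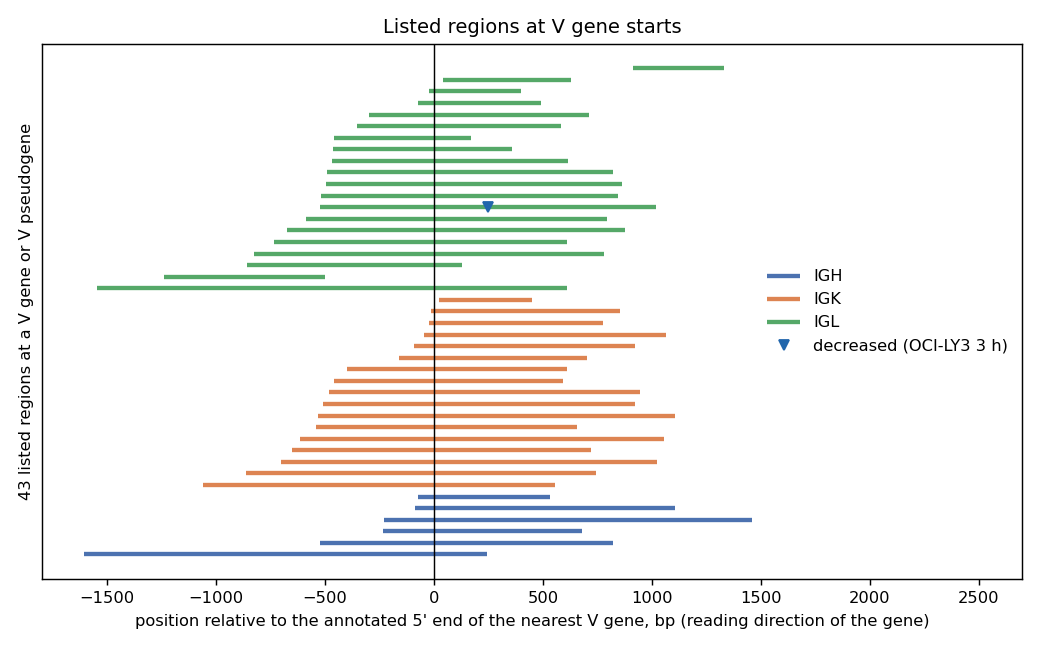
Extent of the 43 listed regions at V genes or V pseudogenes (1 line each, grouped by locus), in bp from the annotated 5′ end of the nearest V gene in its reading direction. Most lines, 39 of 43, cross the start at 0, and the triangle marks the 1 decreased region, at IGLV8-61.

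Seen gene by gene, 28 of the 128 V genes (21.9%) and 16 of the 148 V pseudogenes (10.8%) had a listed region within 1 kb of the start in any comparison, beside 29.2% of 20176 protein-coding genes. At 8 h the share of protein-coding genes with an increased region there was 8.26% in OCI-LY3 and 23.03% in VAL. Over the V genes of the 3 loci it was 10.9% and 12.5%, not far from that share in OCI-LY3 and below it in VAL. In IGK, 9 of 44 V genes (20.5%) had a region increased at 8 h in OCI-LY3, compared with 3 (6.82%) in VAL. In IGL, 4 of 37 (10.8%) had one in OCI-LY3 and 11 (29.7%) in VAL, not far from the shares of protein-coding genes. In IGH, only 1 of 47 (2.13%) had one in OCI-LY3 and 2 (4.26%) in VAL, so the heavy chain V genes had the fewest calls at that time in both lines. None of the 22 IGHV3 and none of the 10 IGHV1 genes had a listed region, although these are large heavy chain families. In VAL at 8 h, 4 of the 6 IGLV1 genes had one. In OCI-LY3 at 8 h, calls in IGK came from 4 of 21 IGKV1, 3 of 10 IGKV2 and 2 of 8 IGKV3 genes.

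A total of 12 V genes or V pseudogenes had a listed region at the start in 2 or more comparisons, and all of those calls were increases. The pseudogene IGLV10-67 had one in 3 comparisons, through a pair of neighbouring regions near the noncoding gene PRAMENP, one listed at 8 h in OCI-LY3 and the other at both times in VAL. IGKV1D-43 and IGKV1D-8 were increased at both times in OCI-LY3. IGKV1-6, IGLV5-48 and IGLV3-9 were increased at both times in VAL. The 2 times of a line share their 0 h libraries, so such a repeat is not an independent one. IGHV4-28, IGLV7-46 and IGLV1-44, with the pseudogenes IGHV7-27 and IGLV3-31, were increased at 8 h in both lines, whose controls are separate. The pseudogene IGKV1D-27 was increased at 8 h in OCI-LY3 and at 3 h in VAL. In the other direction stood IGLV8-61, named here because it was the only V gene with a decreased region (chr22:22452587-22454127, OCI-LY3 at 3 h). A further decreased region of that comparison had its midpoint 12583 bp downstream of that gene's start, at chr22:22464958-22466428, and overlapped no gene. With the regions at IGHM, at IGLJ3 and at IGLJ7, these were all 5 decreased member regions, and none of them was listed in another comparison.

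IGK exists as a proximal and a distal cluster of V genes, near-copies of each other, and the OCI-LY3 increases at 8 h fell in both, 9 regions on the distal side and 8 on the proximal side, the one beyond IGKC included. Over the 33 pairs of proximal and distal copies, 500 bp around the proximal start matched the distal copy at a median identity of 99.4% (range 92.3 to 100). Reads that map to more than 1 place had been removed, so accessibility at near-identical copies may be under-measured; its part in the calls was not tested. Both copies were listed in 5 pairs, only the distal one in 2, only the proximal one in 2 and neither in 24. The pairs with both copies listed were chosen for description after their values were seen. They were IGKV1-8 and IGKV1D-8, IGKV2-10 and IGKV2D-10, IGKV3-11 and IGKV3D-11, IGKV2-26 and IGKV2D-26, and IGKV1-27 and IGKV1D-27. Their identities ran from 92.3% to 99.2%, and the identities of the 24 pairs without a call ran from 94.1% to 100%. The ranges overlapped, but the medians were 98.3% and 99.4%, and all 5 pairs lay below the median of the pairs without a call, as did 9 of those 24. In every 1 of the 5 pairs both copies were increased in OCI-LY3 at 8 h.

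Genes of other types inside the windows carried part of the calls. The surrogate light chain, which pairs with the heavy chain in B cell precursors, includes the product of VPREB1. This gene had 2 regions in VAL, at chr22:22597276-22598285 (increased at 3 h) and chr22:22598852-22599481 over exons 1 and 2 (increased at 3 h and 8 h), and none in OCI-LY3. IGLL5, a gene related to the lambda chain, had a region over exon 1 (chr22:23229866-23230757, 5.12 kb from IGLJ1) increased in VAL at 8 h. TOP3B, a topoisomerase gene in the flank beyond the last IGLV gene, had the only member region listed in 3 comparisons (chr22:22336385-22337618), increased at 8 h in OCI-LY3 and at 3 h and 8 h in VAL. ZNF280B, a zinc finger gene inside IGL, was increased at exon 1 in VAL at 8 h. In all, 16 genes of no immunoglobulin type were overlapped or reached at their start, 4 of them protein-coding. The rest were noncoding or pseudogenes, among them ABHD17AP5, D86994.1 and hsa-mir-5571, and 5 carry only an Ensembl identifier; their calls were increases.

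Few member regions were common to both lines. At 8 h, 8 regions were increased in both, which is 25.0% of the 32 in OCI-LY3 and 14.8% of the 54 in VAL, and 0 went in opposite directions. Over all increased regions at 8 h the same shares were 53.3% and 20.9%. IGK contributed 0 of the 8, IGH 3 and IGL 5. At 3 h, 0 member regions were shared, beside 28.5% of all regions listed in OCI-LY3 and 18.9% of those in VAL, with both directions counted. Of the 86 members, 69 were listed in 1 comparison, 16 in 2 and 1 in 3; over all listed regions, 70.7% were listed in 1, 20.9% in 2, 5.40% in 3 and 2.95% in all 4.

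The base composition of member regions differed between loci. The median G+C content was 61.5% in IGH, 54.5% in IGL and 46.8% in IGK, beside 47.5% over all distinct listed regions. Over the whole genome, the median was 53.5% in increased and 42.8% in decreased regions at 8 h in OCI-LY3, compared with 58.1% and 40.8% for VAL. The 17 IGK regions increased in OCI-LY3 at 8 h had a median of 45.7%, below the increased regions elsewhere on chromosome 2 (49.8%). In VAL at 8 h, the increased regions of IGH had a median of 61.5% and those of IGL 55.7%. Whether G+C content has a part in the calls was not tested. Member regions were also narrower, with a median width of 1034 bp beside 1309 bp.

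**Figure D5:**
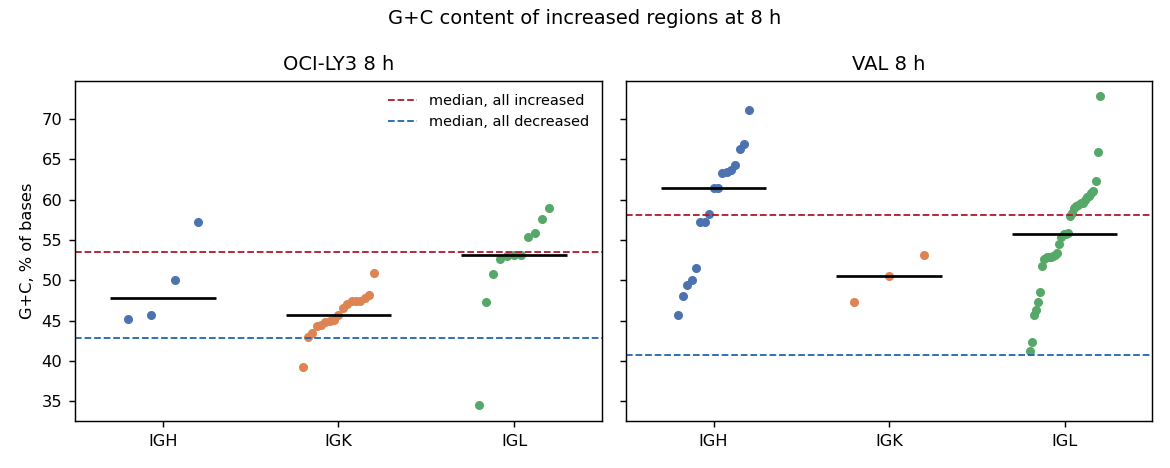
G+C content (percent of bases, vertical axis) of each member region increased at 8 h in OCI-LY3 (left) and VAL (right), by locus; black lines are medians, and dashed lines give the medians of all increased (red) and all decreased (blue) regions of that comparison. In OCI-LY3 the IGK points, with a median of 45.7%, all lie below the red line at 53.5%, and in VAL the IGH median of 61.5% lies above the red line at 58.1%.

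Short motifs were searched in the central 200 bp of each region on both strands, and a match is a description, not evidence of binding. The octamer was in 8 of 86 member regions (9.30%, 95% exact interval 4.10 to 17.5), beside 2.79% of all distinct listed regions. Of the 8, 6 were in IGL, 2 in IGK and 0 in IGH. The E-box CAGGTG, a site of E proteins such as TCF3, was in 35 (40.7%, 30.2 to 51.8), beside 21.2%. The composite GAANNGAAA of ETS and IRF factors was in 1 (1.16%, 0.0294 to 6.31), beside 7.89%, and the kappaB site GGGACTTTC was in 0 (0 to 4.20), beside 0.281%. CTCF, searched by its consensus with at most 1 mismatch, matched 5 (5.81%, 1.92 to 13.1), beside 4.0%, and 4 of the 5 were in IGH. The median G+C content of IGH and IGL regions lay above that of all listed regions, and its part in these shares was not tested. Of the 86 regions, 43 lay at starts of V genes or V pseudogenes, some of them near-copies of each other. Matches in such copies are not independent, and the intervals cover counting over regions only.

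The region with the most CTCF matches, 7 in its central 200 bp, is printed because the matches repeat along it; it was chosen after its values were seen. The whole region overlaps the pseudogene IGHVIII-26-1, while the printed central 200 bp lie on the 3′ side of that gene. It was increased in VAL at 8 h. Capitals mark the matches, of which 6 are on the plus strand and 1 on the minus strand overlaps another. The first 5 on the plus strand follow each other at 19 or 20 bp, and the last begins 59 bp after the one before it.
Central 200 bp of the region, chr14:106765318-106765517, plus strand: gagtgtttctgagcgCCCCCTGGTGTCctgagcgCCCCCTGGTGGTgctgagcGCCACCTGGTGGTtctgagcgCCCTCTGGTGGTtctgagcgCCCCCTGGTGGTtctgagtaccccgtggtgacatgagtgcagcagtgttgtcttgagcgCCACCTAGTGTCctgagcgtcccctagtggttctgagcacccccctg

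The T cell receptor loci, built of the same kinds of segments but rearranged in T cells, served as the nearest comparison. They held 29 listed regions. In VAL at 8 h, 11 were increased and 11 decreased (50% decreased, 95% exact interval 28.2 to 71.8), beside 0 of 54 in the immunoglobulin loci. The direction was split by locus: TRA/TRD on chromosome 14 had 11 increased and 0 decreased, and TRB on chromosome 7 had 0 increased and 10 decreased. In OCI-LY3 at 8 h, 4 were increased and 1 was decreased. A single direction along a whole locus was thus not particular to the immunoglobulin loci in these lists.

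Other genes that control or assemble immunoglobulin were read from a list of 28, all of which were found. A start with an increased region within 1 kb was seen at 3 h for 3 of them in OCI-LY3 (7 at the later time), compared with 8 and 11 for VAL. Over 20176 protein-coding genes the same shares were 5.91%, 9.30%, 10.3% and 25.1%. These count the start of any basic transcript, unlike the lower shares given beside the V genes, which count the 5′ end of the gene. A start with a decreased region was seen for 0, 1, 0 and 1, and the gene was PRDM1 at 8 h in both lines, the factor that drives plasma cell differentiation. Over protein-coding genes the decreased shares were 0.694%, 1.28%, 0.322% and 3.38%, and nothing is read from 1 gene of 28. SPI1 and SPIB, ETS factors that bind immunoglobulin enhancers, and CD79B, the signalling partner of the surface antibody, were increased at the start in all 4 comparisons. SPIB, POU2F2, TCF3 and CD79A lie on chromosome 19, where 97.2% to 99.6% of listed regions were increased.

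Within the gene and 10 kb on both sides, 6 and 8 of the 28 genes had only increased regions at the 2 times in OCI-LY3, compared with 11 and 13 for VAL. Of all protein-coding genes, 11.45% and 19.7% had only increased regions in this span in OCI-LY3, and 18.5% and 37.0% in VAL. Only decreased regions were seen for 5, 5, 4 and 7, and both kinds for 1, 4, 1 and 2. Over protein-coding genes the shares were 6.285%, 8.62%, 5.45% and 13.7% for only decreased regions, and 0.8525%, 1.44%, 0.456% and 2.27% for both. In this span POU2F2, which encodes OCT2, had 1 increased region in OCI-LY3 at 3 h, 6 at 8 h, and 3 and 10 in VAL, with 0 decreased. POU2AF1, the coactivator that OCT factors recruit to the octamer, had the opposite pattern, with 2 decreased regions at each time in OCI-LY3 and 2 and 7 in VAL; 2 increased ones were listed beside them in OCI-LY3 at 8 h. JCHAIN, which joins IgM and IgA into polymers, had 1 and 1 decreased regions in OCI-LY3 and 2 and 3 in VAL, and 0 increased. BACH2, a repressor needed for class switching, had 3 and 1 decreased regions in OCI-LY3 and 11 and 8 in VAL, beside 1, 2, 1 and 0 increased. PAX5, the B lineage factor, had 6 and 3 decreased regions in OCI-LY3, with 1 increased at 8 h, and 0 in VAL. RAG1 and RAG2, which encode the V(D)J recombinase, were reached in VAL at 8 h by 1 decreased region and by 0 regions.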

How the data were processed

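ATAC-seq was performed on 24 libraries. According to the study's methods, alignment was to hg19 by Bowtie2; mitochondrial, non-unique and duplicate reads were dropped; the authors then called peaks per sample with MACS2, merged them and counted reads with bedtools, and compared 3 h and 8 h with 0 h with DESeq2; the versions are not given in the sources used here. The methods describe Fast-ATAC with the larger cell number, unlike the labels. The deposited lists hold, in place of counts, other values, namely the coordinates in bp of regions past the authors' limits of fold change and significance (the sources used here give different adjusted p limits): there were 0 columns of per-sample values, no fold change and no p-value, so depth is unknown.

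Lists were intersected (at least 1 bp) with GENCODE v44 lifted to GRCh37, using starts of basic transcripts, in Python 3.11.15 with pandas 2.3.3, scipy 1.17.1 and Biopython 1.88. Orphons outside the loci did not bound them. Intervals are 95% Clopper-Pearson. IGK copies were aligned locally. Counting, motif search and alignment were tested on simulated data. Alternatives varied the flank, the bounding genes, the overlap, merging, the locus pooled, the promoter distance and the motif search.

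Named genes were all C genes, all J, D and other genes at member regions, and the 12 V genes or V pseudogenes listed in most comparisons; regions are given by position where called in 3 or 4 comparisons, between J and C genes or beyond the last C gene. Other regions and genes, the octamer in V promoters and the IGK pairs were chosen after values were seen. From the plan, 1 gene and 1 motif are not reported here. Members and lists were chosen with earlier results of these data known.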

Additional observations from a re-analysis of the deposited data

How the results depend on the processing

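No paired analysis was possible because the lists hold no values per library; for the same reason leaving out libraries in turn was not run. Of 113 values recomputed under other settings, 97 stayed within 1.5 times the count or within the interval of the reported share, and 16 moved. The 86 member regions became 54 when those under 10 kb apart were merged and 41 without IGL. Without IGL the regions called were 5 and 21 in OCI-LY3 and 2 and 20 in VAL (3 h, then 8 h), and the decreased share in OCI-LY3 at 3 h was 20% in place of 55.6%; without IGK, 15 were called in OCI-LY3 at 8 h. Without regions near starts of genes of no immunoglobulin type, an alternative added after seeing the data, VAL at 3 h had 3. The decreased share was 0% at 8 h in OCI-LY3 and at both times in VAL under every setting tried. Settings that drop, merge or reweight member regions could only return 0% there, and these values are among the 97. Only the wider flank and the pseudogene bounds could have added a decreased region. Within 5 kb, 50 regions in place of 33 reached the start of an immunoglobulin gene. Searching whole regions gave the octamer in 37.2%, the E-box in 86.0%, the ETS and IRF composite in 22.1% and CTCF in 22.1% of members, beside 12.3%, 69.8%, 36.5% and 13.7% of all regions. The octamer with 1 mismatch matched 23.3% beside 18.1%, and CTCF with 0 mismatches matched 0% beside 0.758%. The other settings add or drop regions by construction. Whole regions contain their central 200 bp, and allowing a mismatch keeps every exact match. With whole regions or 1 mismatch the motif shares could thus only rise or stay. With 0 mismatches they could only fall or stay.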

Other observations

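Immunoglobulin V segments also exist as orphons, copies that lie outside the 3 loci and cannot join a J gene there. Counting each position once, 3 of 13 V gene orphons and 5 of 39 V pseudogene orphons had a listed region within 1 kb of the start, beside 29.2% of protein-coding genes, and 21.9% of the V genes and 10.8% of the V pseudogenes inside the loci. All of these calls were increases. In OCI-LY3 at 8 h they were at IGKV2OR2-2, IGKV1OR2-6 and a further IGKV3 orphon on chromosome 2, at IGHV3OR16-13 on chromosome 16, and at IGKV2OR22-4 and IGKV2OR22-3 on chromosome 22. In VAL at 8 h they were at IGKV1OR2-6, at IGHV3OR15-7 on chromosome 15 and at IGKV1OR22-5 on chromosome 22. IGKV1OR2-6 was the only orphon listed in both lines. The kappa orphons on chromosome 2 with a call, those named above, were all increased in OCI-LY3 at 8 h. On the rest of that chromosome, which includes them, 56.7% of listed regions were decreased. There, 35.8% of the increased and 13.04% of the decreased regions lay within 1 kb of a start, as the orphon regions do by choice. Nothing is read from so few.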
